A study of Mus musculus with 7 samples.

Results

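CC chemokines and their receptors were examined in J558 tumours as 9 genes, the ligands Ccl2, Ccl3, Ccl4, Ccl5, Ccl6, Ccl7, Ccl8 and Ccl9 and the receptor Ccr2. All probes annotated to these genes were taken, which gave 10 of the 23978 probes and 9 of the 14739 named genes on the array. J558 is a mouse myeloma line derived from a BALB/c plasma cell tumour that secretes IgA. The cells were inoculated under the skin of the neck of male BALB/c mice, whose age the labels give as 10 weeks, and all groups carried the same line and ate the same chow. The 4 control samples came from mice that drank distilled water, and the 3 OPP samples from mice that drank oil palm phenolics, a water-soluble extract of the oil palm fruit, at 1500 ppm gallic acid equivalents. Tumours were taken 4 weeks after inoculation. The tumour RNA was taken whole, so it holds RNA of the myeloma cells and of the host cells within and around them, and RNA samples were chosen for integrity and outliers removed before deposit. Nothing in the labels ties a sample to a mouse, so the p-values measure only the spread between these samples, which may be technical.

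Chemokines of the CC class are small secreted proteins that draw leukocytes along a gradient by binding receptors coupled to G proteins. Ccl2, Ccl7 and Ccl8 belong to the monocyte chemoattractant proteins, whereas Ccl3, Ccl4 and Ccl5 attract T cells, NK cells and macrophages. In tumours, they can be made by the tumour cells, by stromal cells and by the leukocytes that have entered.

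Values are normalised signals (intensity, linear scale), each read against the detection limit of its own array, which lay between 20.64 and 26.68. On each array 10653 to 11268 probes, or 44.4 to 47.0%, were above this limit. Of the plasma cell markers with a probe, 8 of 9 were tested, with summed signals of 42904 to 49332 in control and 44858 to 48878 in OPP tumours. Most of the sum came from Pou2af1 and Xbp1, transcription factors of the lineage, while Cd79a, a B cell receptor chain that plasma cells largely lose, was not above the limit on any array and Mzb1 was at 9.0 in OPP replicate 3, under the limit. Control replicate 1 and OPP replicate 3 stood apart from the rest of their groups. On the first principal component, which held 41.9% of the variance, control replicate 1 lay at -14.55 and OPP replicate 3 at -37.08, while the other control arrays lay between 16.61 and 25.80 and the other OPP arrays at -7.92 and -3.34. The ligands, the named genes of the CC system and the counts of each main list are therefore given also without these arrays.

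All 8 ligands gave a signal above the limit on every array of at least 1 group, and all 8 had a log2 difference (OPP minus control) below 0. Of all 10371 tested probes 48.3% lay below 0. The median over the ligands was -0.53, compared with 0.01 over all tested probes. None of the 8 passed an adjusted p under 0.05 in limma (0.00% of all tested probes) and none an unadjusted p under 0.05 (9.36% of all tested probes, and 3.55% in the lower direction). The control and OPP arrays overlapped for every ligand, while 3.79% of all tested probes were lower and 5.91% higher in OPP tumours without overlap. The receptor Ccr2, read by 1 probe, was not above the limit on any array. For this and other genes without signal, a probe that does not respond cannot be told from absent RNA.

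**Figure D1:**
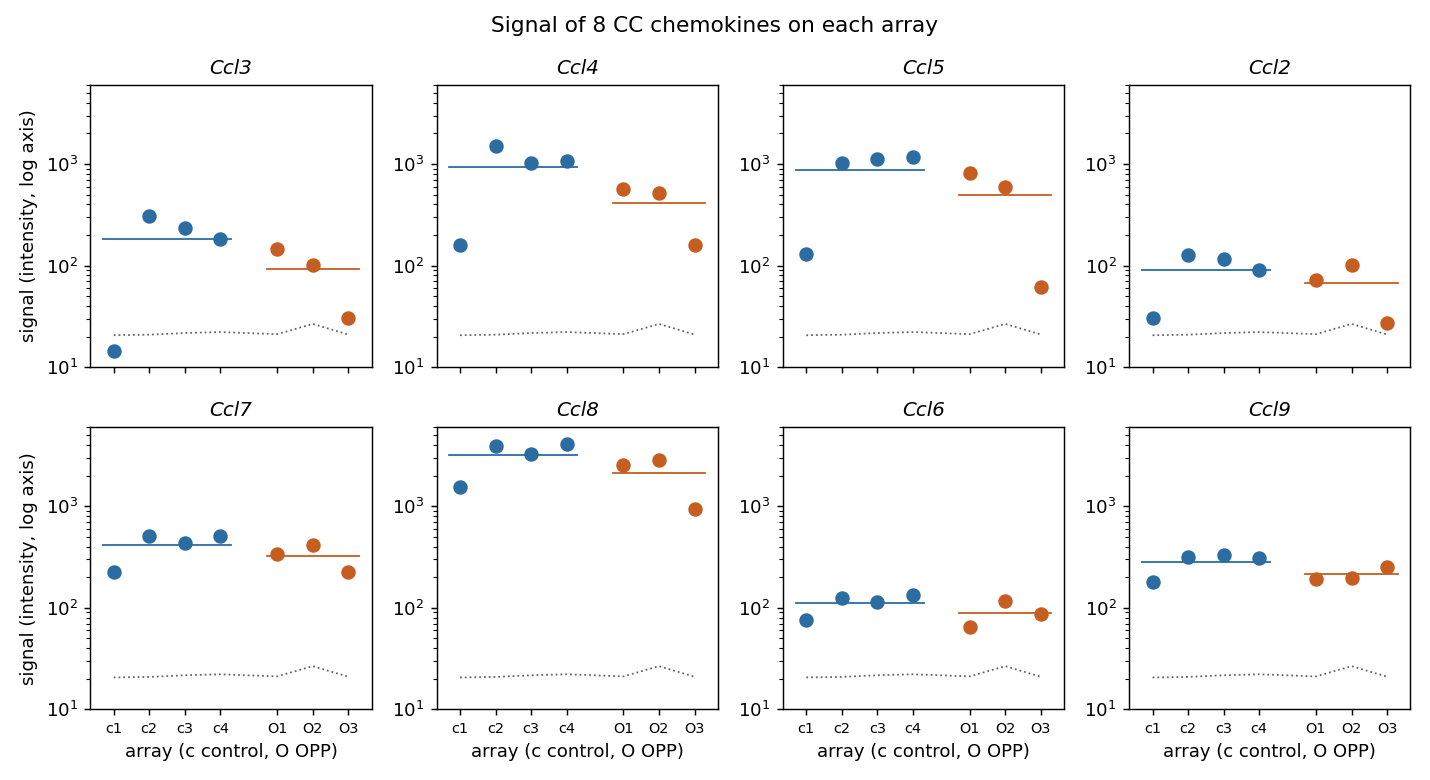
Normalised signal (intensity) of each ligand on every array (log axis), with control (c) and OPP (O) arrays as points, the group means as horizontal lines and the detection limit of each array as a dotted line. Control replicate 1 was the lowest control array for all 8 ligands, and OPP replicate 3 the lowest OPP array for 6 of 8.

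Ccl3, Ccl4 and Ccl5 varied most within the groups. Ccl3, or macrophage inflammatory protein 1 alpha, had signals of 14.4, 306.8, 234.3 and 181.4 in control replicates 1 to 4 and 145.7, 101.6 and 30.4 in OPP replicates 1 to 3. Control replicate 1 was under the limit of its array, at 5.98% of the mean of the other controls, and OPP replicate 3 was at 24.6% of the mean of the other OPP arrays. The group means were 184 ± 124 (SD, n = 4) and 92.6 ± 58.2 (SD, n = 3). The log2 difference was -0.61 (SE 1.09, 95% confidence interval -3.15 to 1.93, limma adjusted p = 0.868), with the OPP arrays lying inside the range of the controls.

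Ccl4, or macrophage inflammatory protein 1 beta, was measured by 2 probes. The brighter probe gave 160.7, 1500.6, 1016.8 and 1065.1 in control and 565.7, 516.2 and 159.3 in OPP tumours. The other controls all lay above every OPP array, and control replicate 1 lay beside OPP replicate 3. Means were 936 ± 561 (SD, n = 4) and 414 ± 222 (SD, n = 3), with a log2 difference of -0.99 (SE 0.81, 95% confidence interval -2.88 to 0.90, limma adjusted p = 0.725). The second probe gave 22.0, 273.9, 187.8 and 186.9 in control and 99.9, 85.3 and 18.8 in OPP tumours, the last value being under its limit. Its log2 difference was -1.15 (SE 0.96, limma adjusted p = 0.725), and it ordered control replicate 1 and OPP replicate 3 below the other arrays as the brighter probe did.

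Ccl5, or RANTES, a chemoattractant that T and NK cells themselves release, gave 129.5, 1033, 1128.8 and 1177.2 in control and 818.6, 600.1 and 61.6 in OPP tumours. The controls other than replicate 1 were close together, at 1113 ± 73.4 (SD, n = 3), and all lay above the OPP arrays. OPP replicate 3 was at 8.68% of the mean of the other OPP arrays, and only 0.125% of all tested probes had a lower such ratio. Over all arrays the means were 867 ± 495 (SD, n = 4) and 493 ± 390 (SD, n = 3), and the log2 difference was -1.06 (SE 1.10, 95% confidence interval -3.62 to 1.5, limma adjusted p = 0.781).

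Of the monocyte chemoattractants, Ccl8 gave 1560.4, 3913.8, 3302.4 and 4115.7 in control and 2557.5, 2850.9 and 945.6 in OPP tumours. Again the controls other than replicate 1 lay above every OPP array. Means were 3223 ± 1161 (SD, n = 4) and 2118 ± 1026 (SD, n = 3), and the log2 difference was -0.67 (SE 0.47, 95% confidence interval -1.76 to 0.43, limma adjusted p = 0.680). In mice, Ccl8 acts through Ccr8, which was not above the limit on any array.

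Ccl7, a ligand of Ccr2, gave 225.5, 508.6, 432.3 and 504.1 in control and 340.5, 412.3 and 226.8 in OPP tumours. OPP replicate 2 lay just under the lowest of the other controls, and OPP replicate 3 beside control replicate 1. Means were 418 ± 133 (SD, n = 4) and 327 ± 93.5 (SD, n = 3), with a log2 difference of -0.33 (SE 0.33, 95% confidence interval -1.09 to 0.44, limma adjusted p = 0.776).

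Ccl2, the main ligand of Ccr2 and a strong attractant of monocytes, gave 30.3, 128.0, 115.7 and 90.2 in control and 72.6, 100.6 and 27.2 in OPP tumours. Here OPP replicate 2 lay within the controls even when control replicate 1 was set aside. Means were 91.0 ± 43.5 (SD, n = 4) and 66.8 ± 37.0 (SD, n = 3), with a log2 difference of -0.45 (SE 0.61, 95% confidence interval -1.86 to 0.96, limma adjusted p = 0.827). The receptor Ccr2, which carries monocytes out of the bone marrow, had signals of -1.9, -4.9, -8.6 and -10.5 in control and -4.4, -10.4 and -6.4 in OPP tumours after background subtraction, so only a bound can be given and no comparison was made.

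Ccl6 and Ccl9, both ligands of Ccr1 found in rodents, had the smallest spread of the 8. Ccl6 gave 75.5, 125.5, 115.0 and 133.3 in control and 65.4, 117.6 and 86.2 in OPP tumours. Its lowest OPP array was replicate 1, and OPP replicate 3 stood at 94.2% of the mean of the other OPP arrays. Means were 112 ± 25.7 (SD, n = 4) and 89.7 ± 26.3 (SD, n = 3), with a log2 difference of -0.33 (SE 0.26, 95% confidence interval -0.93 to 0.26, limma adjusted p = 0.703).

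Ccl9 gave 178.3, 318.5, 330.4 and 309.3 in control and 191.1, 197.1 and 251.7 in OPP tumours. OPP replicate 3 was the highest OPP array, at 130% of the mean of the others, and the controls other than replicate 1 lay within 309.3 to 330.4. Means were 284 ± 71.1 (SD, n = 4) and 213 ± 33.4 (SD, n = 3), and the log2 difference of -0.38 (SE 0.23, 95% confidence interval -0.93 to 0.16) had the smallest limma adjusted p of the 8, at 0.638. In an exact two-sided permutation test of each ligand, the ligands had p-values from 0.229 for Ccl9 to 0.629 for Ccl3, where 0.0571 is the smallest that 4 against 3 arrays allow.

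The spread within groups was large for most ligands beside that of other probes. The pooled SD of log2 signal within groups was 1.76 for Ccl5, 1.75 for Ccl3, 1.30 for Ccl4 and 0.97 for Ccl2, and 98.6 to 99.8% of all tested probes had a smaller one. It was 0.75 for Ccl8, 0.51 for Ccl7, 0.39 for Ccl6 and 0.35 for Ccl9, compared with a median of 0.19 over all tested probes. The ratio of the highest to the lowest control array ranged from 1.77 for Ccl6 to 21.3 for Ccl3. Without control replicate 1, the SD of the controls on the log2 scale went from 2.04 to 0.38 for Ccl3, from 1.55 to 0.10 for Ccl5 and from 0.42 to 0.05 for Ccl9, while the median over all tested probes went from 0.17 to 0.15.

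Control replicate 1 was the lowest control array for 8 of 8 ligands, compared with 33.5% of all tested probes. OPP replicate 3 was the lowest OPP array for 6 of 8, compared with 36.8% of all tested probes, the exceptions being Ccl6 and Ccl9. Both held for 6 of 8 ligands, compared with 15.9% of all tested probes. For 6 of 8 ligands these arrays were the lowest pair of all 7, compared with 11.1% of all tested probes.

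**Figure D2:**
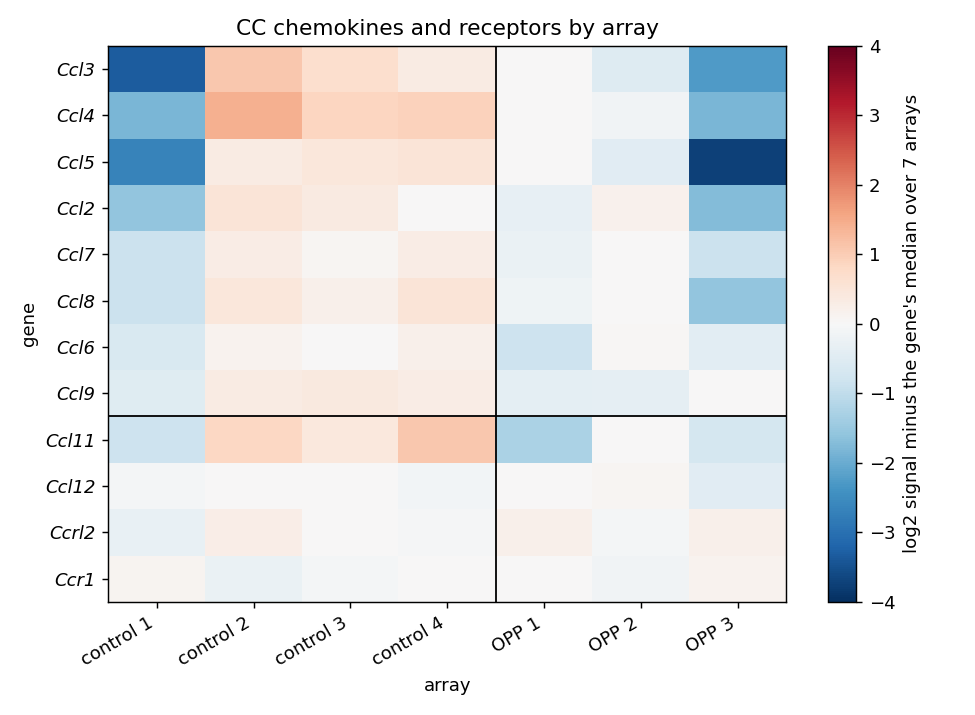
Log2 signal of the 8 ligands (above the line) and of Ccl11, Ccl12, Ccrl2 and Ccr1 (below it) on each array, minus the median of that gene over the 7 arrays (colour scale in log2 units). Control replicate 1 and OPP replicate 3 were the lowest pair for Ccl2, Ccl3, Ccl4, Ccl5, Ccl7 and Ccl8, whereas for Ccl6 and Ccl9 OPP replicate 1 was the lowest OPP array.

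Without both of these arrays, all 8 ligands still had a log2 difference below 0 (51% of all tested probes), with a median of -0.58 compared with -0.01 over all probes. Of the 8, 5 reached an unadjusted p under 0.05 in the lower direction (6.12% of all tested probes). Ccl9 differed by -0.72 (SE 0.11, limma adjusted p = 0.15), Ccl4 by -1.12 (SE 0.20, limma adjusted p = 0.199) and Ccl5 by -0.67 (SE 0.17, limma adjusted p = 0.312). Ccl3 differed by -0.95 (SE 0.27, limma adjusted p = 0.339) and Ccl8 by -0.48 (SE 0.14, limma adjusted p = 0.358). None of the 8 passed after adjustment, where 0.0187% of all tested probes did. This comparison rests on 3 control and 2 OPP arrays, which were chosen from these same data. Control replicate 1 was the lowest control array for all 8 ligands, so leaving it out raises every control mean and narrows the spread. Leaving out OPP replicate 3 raises the OPP mean for every ligand but Ccl9, though only from 89.7 to 91.5 for Ccl6. For Ccl9, where it was the highest OPP array, the OPP mean is lowered. The direction and the p-values here thus depend in part on that choice.

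Leaving out 1 array at a time gave different answers. Without control replicate 1, 4 of 8 ligands reached an unadjusted p under 0.05 in the lower direction (7.0% of all tested probes), namely Ccl9 at -0.59, Ccl4 at -1.71, Ccl3 at -1.62 and Ccl7 at -0.60 on the log2 scale, with limma adjusted p-values of 0.224 to 0.382. Without OPP replicate 3, the log2 differences of Ccl2, Ccl3 and Ccl5 were 0.10, 0.06 and 0.11, thus above 0, while those of Ccl4, Ccl8 and Ccl9 were -0.40, -0.16 and -0.51.

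**Figure D3:**
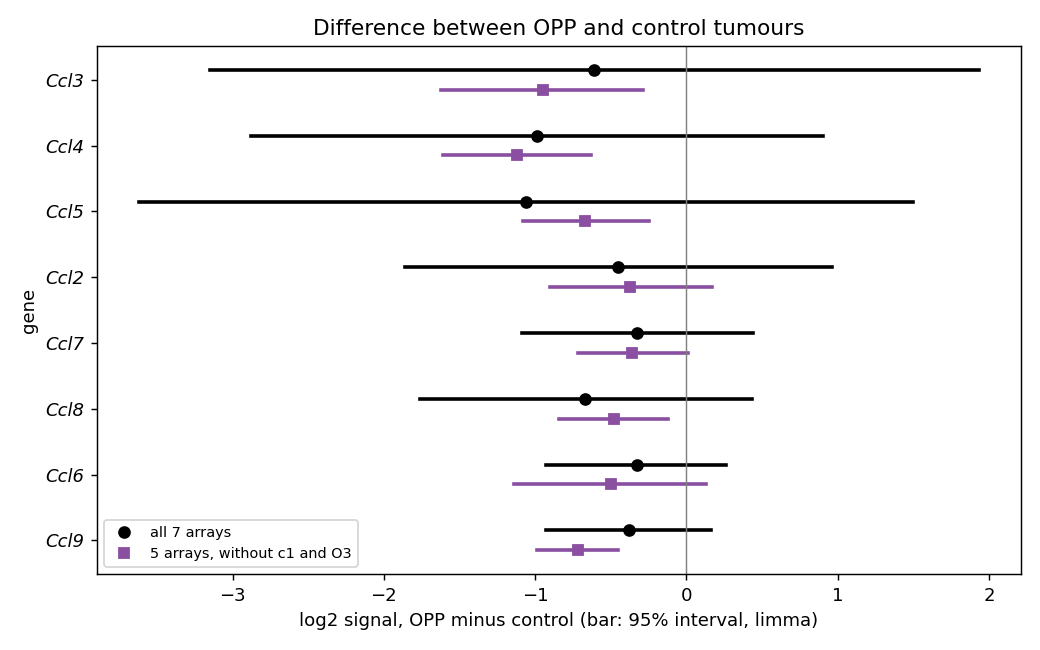
Log2 difference (OPP minus control) of each ligand with its 95% confidence interval, unadjusted for the number of probes, over all 7 arrays (circles) and over the 5 arrays other than control replicate 1 and OPP replicate 3 (squares). Every interval over all arrays spans 0, and over the 5 arrays those of Ccl2, Ccl6 and Ccl7 do.

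The genes of the ligands lie in a pair of clusters on chromosome 11, in the order Ccl2, Ccl7, Ccl11, Ccl12 and Ccl8 in one and Ccl5, Ccl9, Ccl6, Ccl3 and Ccl4 in the other. Thus Ccl9 and Ccl6, for which OPP replicate 3 was not the lowest OPP array, lie between Ccl5 and Ccl3, for which it was. The promoters of Ccl3, Ccl8 and Ccl9 are shown as those of the ligand with the widest spread among controls, of the brightest ligand and of the ligand for which OPP replicate 3 was the highest OPP array. They are RefSeq sequences of build GRCm38.p6, 250 bases before to 50 bases after the annotated start, read 5′ to 3′ on the strand of the gene. Capitals mark matches to the motifs named below. Ccl3 lies on the minus strand at chr11:83649329-83649628, Ccl8 on the plus strand at chr11:82114935-82115234 and Ccl9 on the minus strand at chr11:83578587-83578886.
Ccl3: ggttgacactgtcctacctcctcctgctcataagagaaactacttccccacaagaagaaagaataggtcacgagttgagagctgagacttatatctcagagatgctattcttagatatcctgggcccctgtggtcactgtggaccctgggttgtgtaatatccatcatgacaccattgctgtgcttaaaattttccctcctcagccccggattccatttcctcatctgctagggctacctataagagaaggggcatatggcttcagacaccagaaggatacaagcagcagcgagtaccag
Ccl8: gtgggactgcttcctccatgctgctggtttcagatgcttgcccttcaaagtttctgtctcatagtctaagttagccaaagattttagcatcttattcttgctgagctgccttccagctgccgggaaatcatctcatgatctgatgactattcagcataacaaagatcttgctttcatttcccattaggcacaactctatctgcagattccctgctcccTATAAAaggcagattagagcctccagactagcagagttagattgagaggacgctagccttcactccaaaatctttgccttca
Ccl9: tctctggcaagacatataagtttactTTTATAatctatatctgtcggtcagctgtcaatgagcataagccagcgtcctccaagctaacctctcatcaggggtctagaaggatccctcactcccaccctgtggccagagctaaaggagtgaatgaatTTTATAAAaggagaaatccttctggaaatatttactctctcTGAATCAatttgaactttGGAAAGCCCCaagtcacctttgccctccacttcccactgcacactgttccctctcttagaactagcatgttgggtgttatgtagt

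Both strands were searched for the TATA box TATAAA, the AP-1 motif TGANTCA, the CCAAT box and the NF-kappaB motif, which were found in 13.6, 7.81, 37.4 and 8.46% of 32851 promoters of the same length. The Ccl8 promoter held TATAAA at -32. The Ccl9 promoter held TATAAA at -92, which overlaps a match of the other strand at -94, and a further match of the other strand at -224. It also held an AP-1 match at -53 and an NF-kappaB match of the other strand at -35. No match lay in the Ccl3 window, nor in those of Ccl6 and Ccr2. Such matches describe the letters only. The promoters of Ccl2, Ccl4, Ccl5 and Ccl7 are not used here.

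Other genes of the CC system gave a different count. Of 30 listed ligands and receptors 26 had a probe and 7 were tested. Of these, 3 lay below 0 (48.3% of all tested probes), with a median of 0.07 (0.05 without control replicate 1 and OPP replicate 3). Ccl12, a mouse ligand of Ccr2 whose gene lies next to Ccl8, gave 379.1, 399.6, 401.7 and 367.9 in control and 399.7, 418.9 and 289.1 in OPP tumours, a log2 difference of -0.09 (SE 0.14, 95% confidence interval -0.41 to 0.24, limma adjusted p = 0.855) that was 0.07 without both arrays. Thus, control replicate 1 was within the range of the other controls for Ccl12, while OPP replicate 3 was the lowest of its group.

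Ccl11, or eotaxin, which attracts eosinophils, gave 40.4, 125.2, 96.0 and 151.4 in control and 29.8, 71.0 and 43.5 in OPP tumours. Its log2 difference was -1.04 (SE 0.48, 95% confidence interval -2.16 to 0.08, limma adjusted p = 0.541), with control replicate 1 lying among the OPP arrays. Without both arrays it was -1.41 (SE 0.40, limma unadjusted p = 0.0129, adjusted p = 0.339). Ccl27a, a chemokine of the skin, was the 1 gene of these 7 at an unadjusted p under 0.05 (9.36% of all tested probes). It gave 37.4, 24.4, 26.6 and 25.6 in control and 39.0, 36.3 and 34.7 in OPP tumours. Its log2 difference was 0.38 (SE 0.16, limma adjusted p = 0.516), and control replicate 1 was above all but 1 OPP array. Without both arrays it was 0.56 (SE 0.11, limma adjusted p = 0.238). Ccrl2, an atypical receptor that binds chemerin, had means of 117 ± 19.3 (SD, n = 4) and 127 ± 14.0 (SD, n = 3) and a log2 difference of 0.13 (limma adjusted p = 0.799), or -0.01 without both arrays.

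Ccr1, a receptor that several of the 8 ligands bind, was among the tested genes, with means of 38.8 ± 4.16 (SD, n = 4) and 40.6 ± 4.00 (SD, n = 3) and a log2 difference of 0.07 (limma adjusted p = 0.870), or 0.05 without both arrays. Ccr1 was named after its values were seen. Besides Ccr2 and Ccr8, the receptors Ccr3, Ccr4, Ccr6, Ccr9 and Ccr10 were not above the limit on any array. Among genes that act below the receptors, 10 of 17 were tested, 4 lay below 0 and 1 was at an unadjusted p under 0.05, shares near those over all tested probes (48.3 and 9.36%), and the counts were the same without both arrays. That gene was Plcb3, a phospholipase C, at 69.4 ± 7.77 (SD, n = 4) and 46.5 ± 7.27 (SD, n = 3), with a log2 difference of -0.58 (SE 0.14, limma adjusted p = 0.347) and no overlap between the groups, and without both arrays it differed by -0.63 (limma adjusted p = 0.362). Gnb1, a G protein subunit, Pik3cg, the lipid kinase of these receptors, and Rac2, a GTPase of leukocyte movement, had log2 differences of 0.07, -0.05 and 0.09.

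Genes known to induce CC chemokines were listed together with genes of their signalling, inhibitors such as Nfkbia included. Of these, 12 of 18 were tested, and all 12 lay below 0 (48.3% of all tested probes), with a median of -0.27. The count thus mixes genes of opposite action. Il18 and Csf1 were each under the limit on an OPP array and were tested only through the controls. None was at an unadjusted p under 0.05 (9.36% of all tested probes). Without control replicate 1 and OPP replicate 3 all 12 again lay below 0 (51% of all tested probes), with a median of -0.24. Of these, 1 was at an unadjusted p under 0.05 in the lower direction (6.12% of all tested probes). This was Tlr2, a receptor for bacterial lipoproteins, named after its values were seen. The brightest were Nfkbia, an inhibitor of NF-kappaB that NF-kappaB itself induces, Rela, a subunit of NF-kappaB, and Irf1, an interferon-induced transcription factor. Their log2 differences were -0.14, -0.08 and -0.13, with limma adjusted p-values of 0.700, 0.806 and 0.895. Irf1 gave 377.2, 655.6, 619.6 and 613.7 in control and 644.6, 607.9 and 330.2 in OPP tumours. It was among the 6 of these 12 genes for which control replicate 1 and OPP replicate 3 were the lowest pair (11.1% of all tested probes). Rela in control replicate 1, at 776.1, was above control replicates 2 and 4, and Nfkbia in OPP replicate 3, at 1148.0, was the highest OPP array. Tnf, Il1a and Csf2 were not above the limit on any array.

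Most tested markers of T and NK cells and of macrophages were lowest on the same arrays, but not all. In bulk tumour RNA, fewer cells of a type and less RNA per cell cannot be told apart. The summed signal of the 13 T and NK cell markers with a probe was 1122, 4054, 3330 and 3920 in control and 2519, 2181 and 740 in OPP tumours. Of the 8 tested, 7 lay below 0 (48.3% of all tested probes) and none was at an unadjusted p under 0.05 (9.36%). Cd3d, Cd3e, Cd3g, Cd8b1 and Nkg7 were under the limit in OPP replicate 3. They were tested only because every control array was above it, which favours differences below 0. For 7 of 8, control replicate 1 and OPP replicate 3 were the lowest pair (11.1% of all tested probes). The T cell marker Cd3e, named after its values were seen, gave 21.6, 405.5, 324.7 and 409.0 in control and 188.8, 113.7 and -2.3 in OPP tumours. Klrb1c, an NK cell marker also named after its values were seen, was the exception to both counts. It gave 24.7, 33.5, 30.1 and 51.2 in control and 40.8, 27.6 and 42.9 in OPP tumours. The log2 difference of Klrb1c was 0.12 (SE 0.27), or -0.15 without both arrays. Cd8b1, a chain of the CD8 co-receptor, and Nkg7, a protein of cytotoxic granules, had log2 differences of -2.04 (SE 1.27) and -1.49 (SE 1.46), while Cd2, an adhesion molecule of T and NK cells, had one of -0.08 (SE 0.20). Without both arrays, 5 of 8 were at an unadjusted p under 0.05 in the lower direction (6.12% of all tested probes) and none passed after adjustment, with a median of -1.16 and Cd3e at -1.37 (SE 0.25, limma adjusted p = 0.202). These 5 were the genes tested only through the control arrays, so nothing is drawn from their count. Cd4, Gzma, Gzmb and Ncr1 were not above the limit on any array.

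For macrophages and monocytes, the summed signal of 17 markers was 8906, 19879, 16525 and 18912 in control and 15092, 13091 and 9502 in OPP tumours. Of the 12 tested, 11 lay below 0 (48.3% of all tested probes) and none was at an unadjusted p under 0.05 (9.36%). For 9 of 12 the same arrays were the lowest pair (11.1% of all tested probes). The exceptions were Lyz2, Mrc1 and Cx3cr1, the last pair named after their values were seen. Mrc1 and Cx3cr1 were highest of all arrays in control replicate 1, at 296.5 and 72.8. Mrc1 was also the highest OPP array in OPP replicate 3, at 273.5, and its log2 difference was 0.02 (SE 0.27). Ctss, a lysosomal protease, had means of 4248 ± 1055 (SD, n = 4) and 3308 ± 511 (SD, n = 3), and Lyz2, the lysozyme of macrophages, 3354 ± 1004 (SD, n = 4) and 2777 ± 432 (SD, n = 3). C1qc, a complement component made by macrophages, had a log2 difference of -0.24 (SE 0.39). Without both arrays, 5 of 12 were at an unadjusted p under 0.05 in the lower direction (6.12% of all tested probes) and none passed after adjustment. The median was -0.36, with Ctss at -0.41 (SE 0.13, limma adjusted p = 0.362). Itgam, Msr1, Cd163 and Fcer1g were not above the limit on any array. The part of these cells in the ligand signals was not tested.

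**Figure D4:**
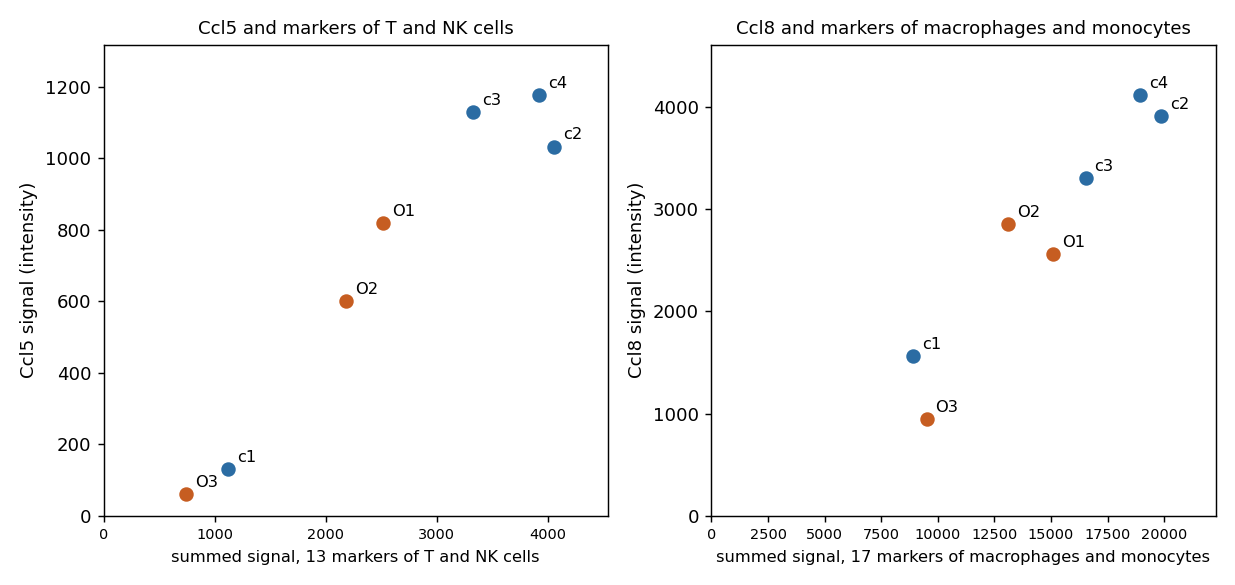
Signal of Ccl5 against the summed signal of T and NK cell markers, and of Ccl8 against that of macrophage and monocyte markers, with 1 point per array (c, control; O, OPP; the number is the replicate). In both panels, control replicate 1 and OPP replicate 3 have the lowest values on both axes.

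The sums of the other leukocyte lists were also lowest in control replicate 1 among the controls and in OPP replicate 3 among the OPP arrays. These sums rest mostly on probes that were not tested, as only 1 of 10 neutrophil and 1 of 7 dendritic cell genes were. The tested neutrophil gene was lowest on both arrays, while the tested dendritic cell gene was highest of all arrays in control replicate 1. Neutrophil markers summed to 131 to 1382 in control and 79 to 313 in OPP tumours, with the highest sum in control replicate 2. Dendritic cell markers summed to 86.7 to 188 and 65.8 to 141, and those of mast cells and eosinophils to 4.7 to 116 and -28 to 70, with none of the latter tested. Fibroblast and endothelial markers did not follow both arrays, and muscle markers did so in part. Fibroblast markers summed to 4306 to 6614 in control and 3920 to 4971 in OPP tumours, and those of endothelium to 883 to 1288 and 1055 to 1298. Skeletal muscle markers summed to 5271 to 20694 and 24.6 to 3585, and all 9 were lower in OPP tumours at an unadjusted p under 0.05 (3.55% of all tested probes), with and without both arrays, and none at an adjusted p under 0.05 in limma. Most of the 9 were under the limit in OPP replicate 1 and were tested only because every control array was above it. That filter favours differences below 0, so nothing is drawn from this count. The muscle sum of control replicate 1 was the lowest control sum, at 38.6% of the mean of the other controls. That of OPP replicate 3 was 27.9% of the mean of the other OPP arrays, but OPP replicate 1 was lower still. The part of muscle tissue in the ligand values was not tested.

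The genes whose log2 signals were most like those of Ccl8 over the 7 arrays were Cfb, complement factor B, with Pearson's r of 0.996, Uba7, the enzyme that activates Isg15, with 0.996, and Casp4, an inflammatory caspase, with 0.993. Cfb gave 428.3, 2255.9, 1674.8 and 2156.5 in control and 1106.6, 1291.6 and 236.4 in OPP tumours, so it was lowest on the same arrays as Ccl8. Without control replicate 1 and OPP replicate 3, the arrays farthest from the median of Ccl8, the values were 0.99, 0.96 and 0.93 over 5 arrays. These are descriptions over arrays that share the same samples, and the genes were picked as the highest of all named genes. Ccr2 was not above the limit, so no such genes are given for it.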

How the data were processed

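Tumour RNA of 4 control and 3 OPP samples was hybridised to single-colour Illumina MouseRef-8 BeadChips. The authors deposited intensity values after background subtraction and rank invariant normalisation in BeadStudio 1.5.1.3, with outlier samples removed. The 14 columns of a table without normalisation match no label and were not used. Left out were 4 bacterial controls and 66 probes that had no value, and 23978 remained, 19343 with 1 gene symbol and 4635 with none; 1 ribosomal RNA probe was left unnamed.

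Values under 10 were set to 10 and log2 was taken. A probe was tested if its signal exceeded 2.33 SD of the noise, estimated per array from values below 0, in all arrays of 1 group or both (10371 probes, 7191 genes). Groups were compared by limma 3.58.1 in R 4.3.3 (two-sided, Benjamini-Hochberg over all tested probes), which replaces the Illumina error model of the study's methods. The procedure was tested on simulated data. A gene was represented by its brightest detected probe. The number of arrays limits the precision. Tables and plots were made with Python 3.11.15, pandas 2.3.3 and matplotlib 3.10.9.

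The members and lists were chosen with earlier results of these data known. All 9 members were named, with, from each list, the genes at an unadjusted p under 0.05 and up to 3 of the brightest others, and the 3 genes most like the brightest ligand. A few further genes, given as exceptions or for the detection filter, were named after their values were seen. For marker lists other than those of T and NK cells and of macrophages and monocytes, only counts and sums are given. Alternatives were other scalings, floors, detection filters, variance priors, array weights, the methods' t-test, the probes of a gene averaged, a replicate block, and arrays left out singly or together.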

Additional observations from a re-analysis of the deposited data

Results flagged for a closer look

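The Ccl5 signal of control replicate 1 was 129.5, far below the other control arrays at 1033 to 1177, and the gap to the nearest of them was 0.862 of the range of the group. The Ccl9 signal of control replicate 1 was 178.3, below the others at 309 to 330, with a gap of 0.861 of the range. These were the 2 of 8 ligands whose control arrays held such a distant value on the linear scale. For separate groups, chance gives one in about 1 of 20. The ligands were all read on the same control arrays, and both distant values came from control replicate 1. The count of 2 of 8 therefore cannot be set against that rate, and no excess over chance is drawn from it. The 3 OPP arrays are too few for such a gap to be judged.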

How the results depend on the processing

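The 8 ligands had 151 values under 19 alternatives, of which 148 kept the direction below 0 and none passed an adjusted p under 0.05 (smallest 0.15, Ccl9). Without OPP replicate 3, the log2 differences of Ccl2, Ccl3, Ccl5 and Ccl12 were 0.10, 0.06, 0.11 and 0.08, and without 1 array at a time they ranged from -0.92 to 0.10, -1.62 to 0.06, -1.83 to 0.11 and -0.19 to 0.08. Without both control replicate 1 and OPP replicate 3, those of Ccl12 and Ccrl2 were 0.07 and -0.01, and Ccrl2 ranged from 0.04 to 0.23 when 1 array was left out. The count of ligands at an unadjusted p under 0.05 was 0, from 0 to 4 when 1 array was left out (4 without control replicate 1) and 5 without both. For the 7 other CC genes it was 1, from 0 to 2 when 1 array was left out (2 without control replicate 1 or OPP replicate 2), 2 without both, and 0 with a floor of 50, with median scaling, without the detection filter, with a trended and robust prior and by the methods' t-test. Over all probes, 0 passed the adjusted threshold in limma, compared with 971 at an unadjusted p under 0.05 (0 and 909 by the methods' t-test); the adjusted count was 2 with quantile normalization, 2 with a floor of 50, 1 with a trended and robust prior, 0 to 4 when 1 array was left out and 2 without both. The cause was not tested.

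Deviations of same-numbered samples from their group means correlated at -0.275, 0.078 and -0.165. The highest value of any pair was 0.481, for control replicate 1 and OPP replicate 3. These few values show no pairing by replicate number but cannot exclude it. With the replicate block, 684 probes were at an unadjusted p under 0.05, none after adjustment and 0 of the 8 ligands. With 4 and 3 arrays, the confidence intervals of Ccl3 and Ccl5 span several log2 units.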
